A study of Rattus norvegicus with 90 samples.

Results

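The livers of male Sprague-Dawley rats were compared 8 h after 1 intraperitoneal injection of thioacetamide at 100 mg/kg, the high dose, and after an injection of saline, the vehicle. The samples were chosen by their labels for tissue, time, and dose, which gave 5 vehicle and 5 high-dose livers out of 90 tissue samples in the whole series. Every rat carried a jugular catheter that had been implanted beforehand, and both groups were dosed in the morning and went without food until the liver was taken in the afternoon, so catheter and fasting are shared by treated rats and controls. RNA was sequenced from poly-A-enriched libraries. The values describe 40071 Ensembl rat transcripts out of 65166 targets in the deposited tables. The other 25095 targets are genomic intervals, which were left out of the tests. Gene names for the transcript identifiers were not in the sources used here, so transcripts are described by level, length, and organ of origin, and only 4 are given by identifier.

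Thioacetamide is a classic liver toxicant. It is not harmful as given, and cytochrome P450 enzymes of the hepatocyte oxidize it to reactive metabolites that bind to proteins and lipids. These enzymes are most abundant around the central vein, and the injury accordingly starts in the center of the liver lobule. The comparison at 8 h shows the transcript changes that are present early after a dose chosen to injure the organ.

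Total estimated counts, the number of read pairs that the authors' program assigned to targets, ranged from 23201770 to 30145236 in the vehicle libraries and from 16641408 to 36303248 in the high-dose libraries. The difference in their means was small relative to the spread (two-sided exact permutation test, p = 0.992, adjusted over 8 library measures 0.992; the smallest possible p was 0.00794). A pair of libraries stood apart. The vehicle library MS-16 had 23.6% of its counts on genomic intervals and the high-dose library MS-14 had 28.9%, whereas the other 8 libraries ranged from 4.08 to 8.76%. The same libraries had 31.9 and 36.2% of their transcript TPM (an abundance scaled by length and library size) on transcripts shorter than 300 bases. For this reason, shares of TPM below are shares of the TPM of transcripts of at least 300 bases. The labelled tissue was checked with transcripts that were at least 10-fold higher in liver than in kidney and heart of other rats, the vehicle rats of 24 h. These took 42.9–50.1% of TPM in the vehicle livers and 38.9–48.9% in the high-dose livers, against at most 0.430% in the kidneys and 0.123% in the hearts of the 8-h vehicle and high-dose rats.

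The high dose changed a large part of the liver transcriptome within 8 h, and rises were both more frequent and larger than falls. Of 16468 transcripts with enough counts to test, 3323 (20.2%) were called differentially expressed, that is, with an adjusted p-value of at most 0.01 and a change of at least 0.866 on the log2 scale. Of these, 2046 rose (12.4% of those tested) and 1277 fell (7.75%), so that 61.6% of the called transcripts rose. With limma on log2(TPM + 1) or log2(TPM + 0.1) in place of the counts, 79.9 or 79.1% of the called transcripts rose. On those scales the median of all transcripts moved from −0.02 to 0.11 or 0.17.

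The median rise was 1.57 on the log2 scale and the median fall was −1.22. Rises of at least 3 log2 units, or 8-fold, were found for 288 transcripts and falls of that size for 37. At 5 log2 units the numbers were 68 and 3. A further 2072 transcripts passed the adjusted p-value but had a change below the limit. In a bulk sample, fewer cells of a type and less RNA per cell cannot be told apart, and this holds for each fall and rise reported here.

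The groups were well separated relative to the spread between rats. All 5 high-dose libraries lay above all 5 vehicle libraries for 3083 transcripts (18.7%), and below them for 2730 (16.6%). Among the called transcripts, 1948 risers (95.2%) and 1205 fallers (94.4%) showed no overlap between the groups. The calls were made from the same libraries, so these 2 shares are largely built in and are a description. Over the 12652 transcripts that averaged 2 CPM or more (counts scaled to library size and composition), the first principal component held 61.2% of the variance and separated the groups. The vehicle libraries lay between −62.05 and −39.4 on this component and the high-dose libraries between 35.9 and 60.7. The second component held 10.6%, and its highest value was that of the vehicle library MS-16 (48.3). Without MS-14 and MS-16, 3252 transcripts were called, with 2033 rises and 1219 falls.

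**Figure D1:**
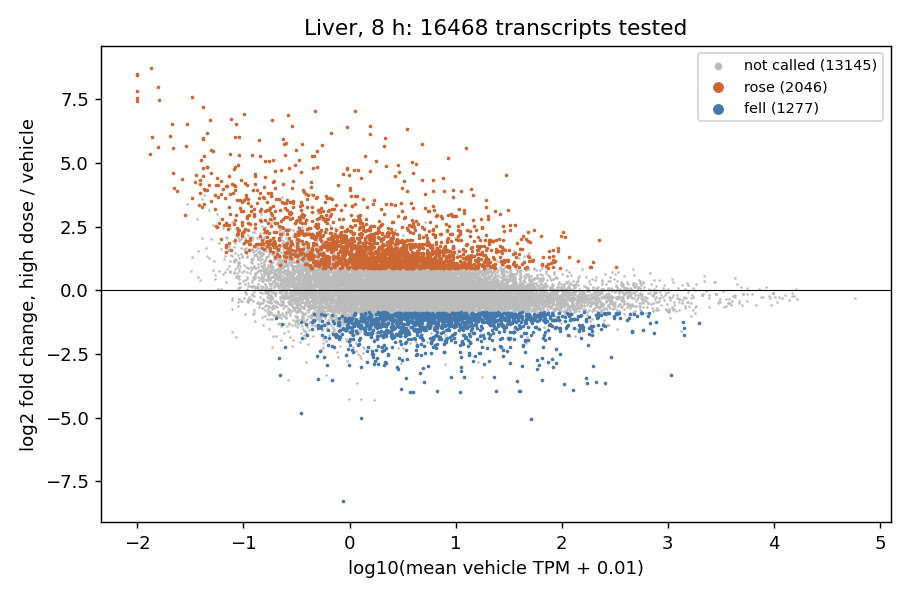
Each point is 1 of the 16468 transcripts tested, with the log10 of its mean vehicle TPM (plus 0.01) on the x axis and its log2 fold change, high dose over vehicle, on the y axis. Transcripts that rose (2046) are orange, those that fell (1277) are blue, and the remainder are gray. The largest rises lie at the left, among transcripts with little or no signal in vehicle livers, and no transcript above 1000 TPM rose.

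The balance of rises and falls shifted with the level of a transcript in the vehicle liver. Among 3881 transcripts with a mean vehicle TPM below 1, 726 rose (18.7%) and 80 fell (2.06%), with a median log2 change of 0.48 over all of them. Between 1 and 10 TPM, 1067 of 7696 rose (13.9%) and 666 fell (8.65%). Between 10 and 100 TPM the balance was reversed, with 244 of 3965 that rose (6.15%) and 441 that fell (11.1%), and a median of −0.24. Above 100 TPM rises were rare. Between 100 and 1000 TPM, 9 of 790 rose and 85 fell (10.8%), and above 1000 TPM none of 136 rose and 5 fell (3.68%). In this top class 3 transcripts were higher at an unadjusted p below 0.05 in edgeR, and DESeq2 called 0 as rises. Vehicle level is part of the comparison itself, and a transcript below 1 TPM could pass the filter on low counts through the high-dose group alone. The pattern is therefore a description.

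The most abundant liver transcripts changed little. The 20 transcripts of at least 300 bases with the highest vehicle level, 5613 to 57516 TPM, had log2 changes between −0.58 and 0.12, and 18 of the 20 values were negative. None was called by edgeR, where 2 had an unadjusted p below 0.05 and the smallest adjusted p-value was 0.0282, and DESeq2 called 0 of the 20. Among the 20, 14 were at least 10-fold higher in liver than in kidney and heart. Length made less difference than level. From the shortest to the longest length quartile, 427, 507, 559, and 553 rose, and 315, 338, 318, and 306 fell.

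The high-dose livers also held more kinds of transcripts. With every library thinned at random to the depth of the smallest one, 20202, 20363, and 21713 transcripts (lowest, median, and highest) had a count above 0 in the vehicle livers, and 21318, 21843, and 22450 in the high-dose livers. The ranges overlapped only through MS-16, which held the highest vehicle value. The highest high-dose value was that of MS-14, so the libraries with most counts on intervals were highest in both groups. Apart from MS-14 and MS-16, the vehicle livers had 20202 to 20489 and the high-dose livers 21318 to 21871. With all libraries, the difference of the means was larger than the spread between rats (1231 transcripts, two-sided exact permutation test, p = 0.0159, adjusted over 8 measures 0.0423). For transcripts with at least 10 counts at this depth the numbers were 14614 to 15643 and 15599 to 16300 (p = 0.0159, adjusted 0.0423, exact permutation test). There were 110 transcripts listed at 0 in every vehicle library and above 0 in every high-dose library, and 10 with the opposite pattern. Most of the 110 were weak, with a median of 5 counts per high-dose library, and only 4 passed the filter on low counts. All 4 were called as rises.

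The largest gains in TPM were made mostly by transcripts that the vehicle liver already expressed. The transcript with the largest gain was 1369 bases long and at least 10-fold higher in liver than in kidney and heart. In the order of the vehicle libraries MS-10, MS-13, MS-16, MS-28, and MS-29 and of the high-dose libraries MS-8, MS-11, MS-14, MS-17, and MS-27, which is kept below, its TPM was 278, 231, 174, 248, and 200 in the vehicle livers and 930, 1163, 769, 914, and 1234 in the high-dose livers. Every high-dose value was more than all vehicle values, and the log2 change was 1.97 (SE 0.15, adjusted p = 4.36e-06). The second, of 1528 bases, was scarce in vehicle livers at 34.95, 40.6, 26.7, 19.1, and 26.7 TPM. After the high dose it stood at 551, 832, 730, 718, and 877 TPM, a 22.8-fold rise in the fit to the counts (log2 change 4.51, SE 0.25, adjusted p = 1.36e-06). The lowest high-dose liver was thus far above the highest vehicle liver.

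The third gain belonged to a target of only 131 bases, likewise restricted to the liver. It had 12.6 ± 11.2 TPM in vehicle and 724 ± 233 in high-dose livers (SD, n = 5). Its TPM rests on few reads, because TPM divides by length. The same transcript had 0.340 ± 0.309 CPM in vehicle and 16.5 ± 3.50 CPM in high-dose livers (SD, n = 5). The next 3 gains, of transcripts between 1655 and 2029 bases, were from 103.3 to 564, from 107 to 532, and from 97.5 to 483 TPM. Their log2 changes of 2.28, 2.11, and 2.11 were alike, and none of the 3 was restricted to the liver.

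A loss of TPM cannot exceed the vehicle level, so ranking by loss picks abundant transcripts. Of the 6 largest losses, 4 were restricted to the liver, as were 14 of the 20 most abundant transcripts described above. The largest loss was that of a liver-restricted transcript of 1626 bases with 2089, 3074, 1141, 1937, and 1597 TPM in vehicle livers. After the high dose it stood at 548, 1617, 435, 745, and 1267 TPM. The TPM ranges thus met, with the highest high-dose value above the lowest vehicle value of MS-16, although the CPM, scaled between libraries, did not overlap, and the log2 change was −1.27 (SE 0.32, adjusted p = 0.00666). The second loss was much steeper. This liver-restricted transcript of 1268 bases had 991, 1401, 591, 1345, and 1016 TPM in vehicle livers and 152, 174, 63.5, 124, and 98.3 TPM in high-dose livers. The fall was 10.1-fold in the fit (log2 change −3.34, SE 0.23, adjusted p = 2.86e-06). The remaining 4 losses were from 1406 to 504, from 1423 to 582, from 1397 to 670, and from 741 to 264 TPM, with log2 changes between −1.74 and −1.23.

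**Figure D2:**
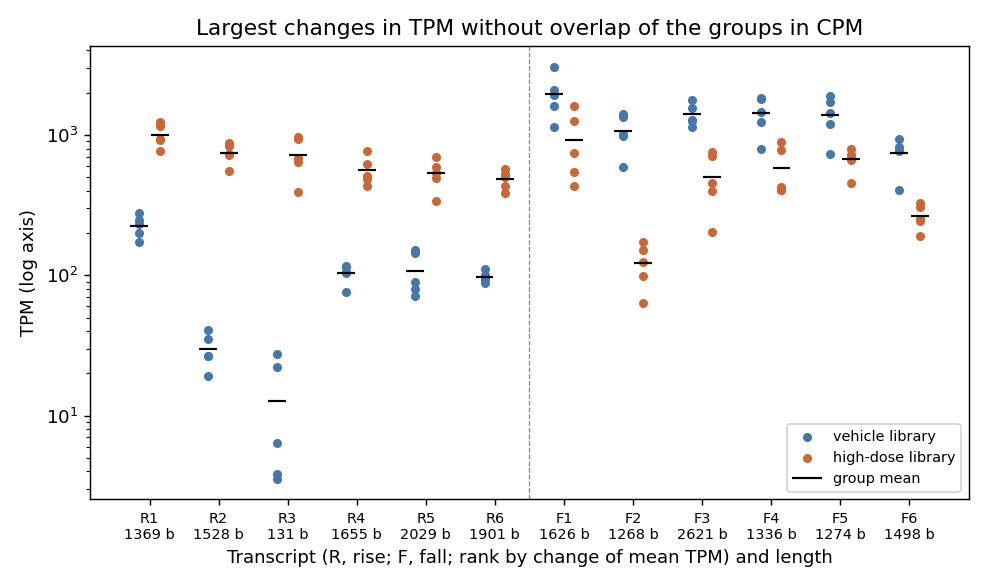
TPM on a log axis for the 6 transcripts with the largest rise (R1 to R6) and the 6 with the largest fall (F1 to F6) in mean TPM, with 1 point per library, vehicle in blue and high dose in orange, and a line at each group mean; the length in bases is given under each label. R2 and R3 rose from below 41 TPM, whereas R1 rose from 226 to 1002 TPM, and F2 fell from 1069 to 122 TPM with a wide gap between the groups.

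Ranked by fold change instead of TPM, the changes were larger and the transcripts mostly scarce. Among 1572 risers that averaged 2 CPM or more and showed no overlap, the 12 largest rises lay between 6.55 and 8.75 on the log2 scale, and none of these 12 was restricted to the liver. Their mean vehicle levels were only 0.00348 to 1.12 TPM. The liver-restricted class requires at least 1 TPM in vehicle livers of 24 h, so their absence from it is largely built in. Among 1049 such fallers, the 12 largest falls lay between −5.04 and −3.58, and 6 of the 12 were restricted to the liver.

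By the same limits on level and overlap, the largest rise was that of ENSRNOT00000080410, a transcript of 2497 bases that was all but missing in vehicle livers. The vehicle libraries had 1 count in all, in MS-29, and the other 4 were at 0. The high-dose libraries had 2.81, 5.38, 7.77, 9.48, and 4.44 CPM, from 817 counts in all. The ratio of the groups' scaled counts was 729, with a 95% exact interval of 130 to 28817 that covers counting error only (fitted log2 change 8.75, SE 0.63, adjusted p = 3.38e-06). The kidney and heart of vehicle rats at 8 h held this transcript at 1.63 ± 0.793 and 1.09 ± 0.352 TPM (SD, n = 5), so after the high dose the liver, at 2.99 ± 1.46 TPM, was at or above the level of the other organs.

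ENSRNOT00000003745, of 1072 bases, had the second largest rise. The vehicle libraries had 2 counts in all, in MS-10 and MS-13, and the high-dose libraries had 2.75, 4.38, 5.31, 4.97, and 4.40 CPM from 572 counts. The ratio was 255 (95% exact interval 70.3 to 2111, fitted log2 change 7.58, SE 0.51, adjusted p = 2.79e-06). Unlike the first, this transcript was near 0 in each organ of vehicle rats, with at most 0.0725 TPM on average in the 8-h kidneys and hearts. In high-dose livers it reached 5.54 ± 1.27 TPM (SD, n = 5).

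ENSRNOT00000001876, of 1086 bases, showed the largest fall among called transcripts that averaged 2 CPM or more and did not overlap between the groups. It had 29.1, 40.8, 70.2, 61.98, and 35.5 CPM in vehicle livers and 2.10, 1.16, 1.16, 2.01, and 0.820 CPM in high-dose livers. The lowest vehicle liver was thus far above the highest high-dose liver, and the fall was 32.8-fold (log2 change −5.04, SE 0.34, adjusted p = 2.84e-06). In vehicle rats it was mainly a liver transcript, with 50.97 ± 12.8 TPM in liver, 2.17 ± 0.900 in kidney, and 0.00938 ± 0.0210 in heart (SD, n = 5). The high-dose liver, at 1.91 ± 0.969 TPM, was near the level of the kidney.

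The second largest fall, that of ENSRNOT00000002814, was less certain. This transcript of 11571 bases had 3.03, 1.86, 13.9, 1.38, and 0.919 CPM in vehicle livers, and the value of 13.9 was that of MS-16. In high-dose livers it had 0.0599, 0, 0.326, 0.110, and 0.224 CPM. The groups did not overlap, and the log2 change was −4.83 (SE 0.96, adjusted p = 0.00174). It was −3.64 without MS-16 and still called. With limma on log2(TPM + 1), where a low level counts for little, the change was −0.36 and the transcript was not called. Its level in the 8-h vehicle kidneys was 5.11 ± 2.43 TPM, against 0.340 ± 0.373 TPM in the 8-h vehicle livers (SD, n = 5), so the liver held little of it even before the dose.

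**Figure D3:**
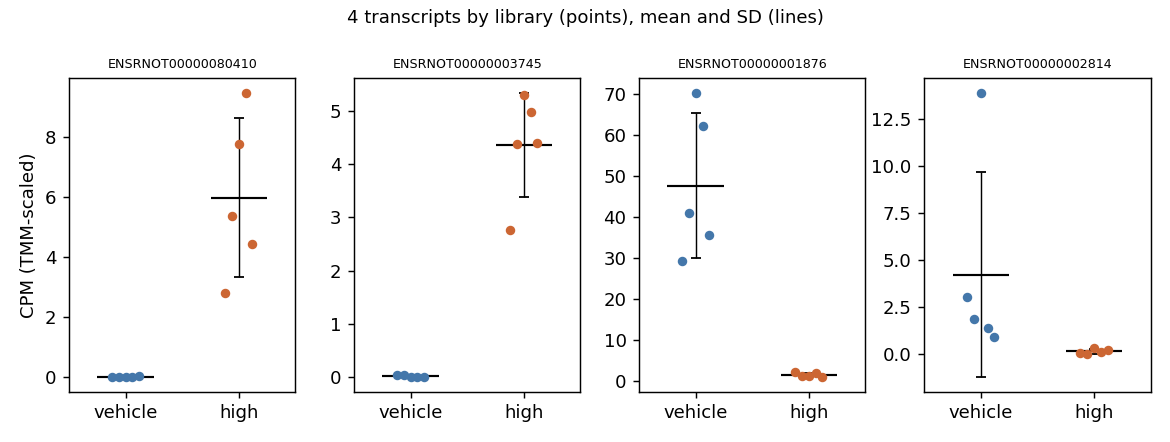
CPM in the 5 vehicle (blue) and 5 high-dose (orange) livers for the 2 transcripts with the largest rise and the 2 with the largest fall within the limits on level and overlap, each with its own linear y axis, with a line at the mean and error bars of 1 SD. In ENSRNOT00000002814 a single vehicle library, MS-16 at 13.9 CPM, lies far above the other vehicle livers, which hold 0.919 to 3.03 CPM.

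Of the transcripts characteristic of liver, many more fell than rose. Organ of origin was defined from the vehicle rats of 24 h, which take no part in the 8-h comparison. Liver-restricted transcripts had at least 1 TPM in liver and at least 10 times the level of kidney and of heart, and 728 were listed. Of the 580 that could be tested, 110 fell (18.97%) and 8 rose (1.38%), against 7.75 and 12.4% of all tested transcripts. Their median log2 change was −0.50, against −0.02 for all. The groups did not overlap for 163 of the 580 that were lower, against 2730 of all 16468 (16.6%). They did not overlap for 10 that were higher after the high dose, against 3083 of all (18.7%). Without MS-14 and MS-16 their median was −0.56, against 0.01 for all.

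All tested transcripts include those below 1 TPM, which the liver-restricted class leaves out. The shares of falls and rises among liver-restricted transcripts were therefore also set beside those of others at the same level in 24-h vehicle livers. Between 1 and 10 TPM, 30 of 158 liver-restricted transcripts fell (18.99%), against 637 of 7381 others (8.63%). Between 10 and 100 TPM, 45 of 182 fell (24.7%), against 363 of 3366 (10.8%). Between 100 and 1000 TPM, 33 of 183 fell (18.03%), against 48 of 526 (9.13%). Above 1000 TPM, 2 of 57 fell and 1 of 60 others. Rises were fewer than among others only at the lower levels. Between 1 and 10 TPM, 2.53% of liver-restricted transcripts rose, against 13.4% of others, and between 10 and 100 TPM 1.10%, against 5.82%. Between 100 and 1000 TPM the shares were alike, at 1.09 and 0.95%, and above 1000 TPM none rose in either set.

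Another class held transcripts with at least 1 TPM in kidney or heart and at least 10 times the liver level. Only 1975 of 4566 listed could be tested. As most were scarce in vehicle liver, a part of them could pass the filter through the high-dose group alone, and their counts are given as a description. Among the tested ones, 366 rose (18.5%) and 71 fell (3.59%), against 12.4 and 7.75% of all tested transcripts. Below 1 TPM in 24-h vehicle livers, 270 of 1384 rose (19.5%), and of other transcripts at that level 577 of 3171 (18.2%). Between 1 and 10 TPM, 88 of 514 rose (17.1%) and 41 fell (7.98%). Of all transcripts at that level outside the liver-restricted class, 13.4% rose and 8.63% fell. Between 10 and 100 TPM, 8 of 72 rose (11.1%) and 10 fell (13.9%), against 5.82 and 10.8% outside the liver-restricted class. Transcripts within 2-fold over the 3 organs were nearer to the whole, with 240 of 2650 that rose (9.06%), 190 that fell (7.17%), and a median of −0.07.

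**Figure D4:**
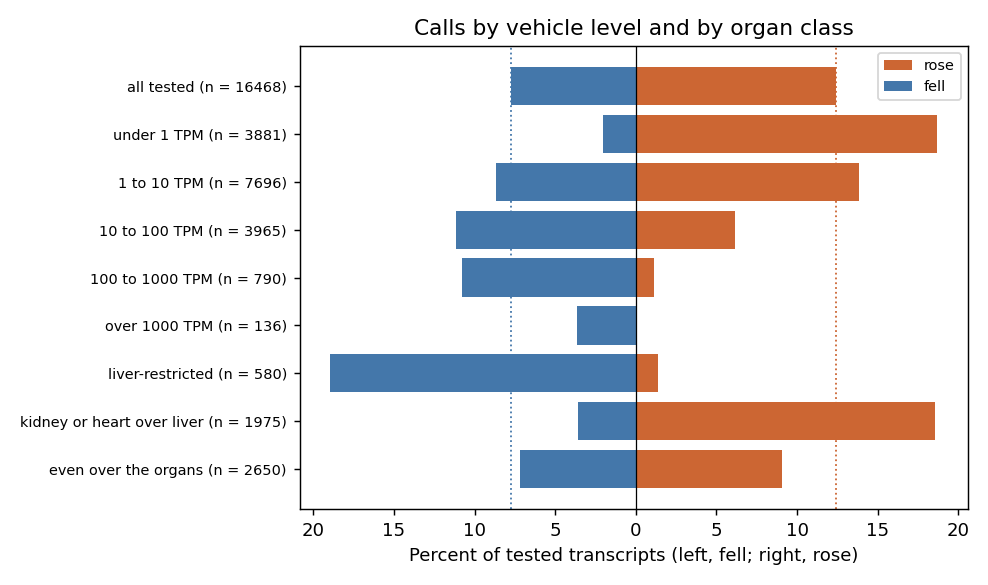
Percent of tested transcripts that fell (blue, to the left) and rose (orange, to the right) for all transcripts, for 5 classes of mean vehicle TPM, and for 3 organ classes, with the number tested beside each name; dotted lines mark the percentages of all transcripts. Rises thin out with abundance, from 18.7% below 1 TPM to none above 1000 TPM, and the liver-restricted class has the highest share of falls, 18.97%.

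The changes were also summed as shares of TPM. The transcripts called as rises took 1.17–1.43% of TPM in the vehicle livers and 4.10–5.50% in the high-dose livers, whereas the called fallers went from 4.55–5.69% to 2.17–2.46%. These ranges follow from how the transcripts were chosen. The liver-restricted transcripts took 50.1, 47.9, 42.9, 49.5, and 48.4% of TPM in the vehicle livers and 48.9, 45.4, 38.9, 46.4, and 43.1% in the high-dose livers, so the groups overlapped. In each group the lowest value was that of the library with the most counts on intervals, MS-16 and MS-14. The transcripts of kidney or heart took 0.648–0.820% in vehicle and 0.988–1.24% in high-dose livers, without overlap.

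To learn how the changes of 8 h compare with those of 24 h, the transcripts were followed in livers of other rats taken 24 h after the high dose and after vehicle. By the study's methods, those rats were dosed in the afternoon and had food until the last 8 h. The hour of dosing and the feeding thus differ along with the time after the dose, and their effects cannot be told apart. The vehicle library MS-1 of 24 h needs to be set apart. In it, the 8-h risers took 4.44% of TPM, against 1.16–1.51% in the other 4 vehicle livers of 24 h, and its shares of risers, fallers, and organ classes were equal to 3 digits to those of MS-9, a library labelled as an 8-h liver given the low dose of 25 mg/kg (43.9% liver-restricted in both). Their total counts were 17747393 and 17747394, and each had 21976 transcripts above 0. The 2 labels thus appear to share 1 library, and which label is right is not known. Neither is among the 10 libraries of the 8-h comparison. Comparisons with the vehicle livers of 24 h are therefore given with and without MS-1.

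Of the 8-h risers, 1977 could be tested at 24 h, and 331 of them rose (16.7%, against 7.44% of all transcripts), with 7 that fell and a median log2 change of 0.77. Without MS-1, 1096 of 1989 rose (55.1%, against 13.2% of all) and the median was 1.13. Of the 8-h fallers, 457 of 1263 fell at 24 h (36.2%, against 8.85% of all), and 729 of 1271 without MS-1 (57.4%, against 13.6%). Their median was −0.85 with MS-1 and −1.10 without it. Among the liver-restricted transcripts, 344 of 574 fell at 24 h (59.9%) with a median of −1.45, and 401 of 578 without MS-1, with a median of −1.66. As a share of TPM they held 28.8–35.3% in the 24-h high-dose livers, below each of the 8-h high-dose livers. This class was chosen by a high level in the 24-h vehicle livers other than MS-1, which are also the controls at 24 h. A fall at 24 h is therefore partly built in, and the counts and medians of the class are a description.

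The difference between the effects at the 2 times, which also differ in hour of dosing and feeding, was tested as an interaction over 20 livers. At an adjusted p-value of at most 0.01, 1430 of 17927 transcripts differed (7.98%), and 1878 of 18398 without MS-1 (10.2%). Of the 580 liver-restricted transcripts, 143 had a more negative effect at 24 h (24.7%, against 4.30% of all) and 1 a more positive effect, with a median difference of −0.93. Without MS-1 the numbers were 190 (32.8%, against 5.43% of all) and 2. Of the 8-h risers, 266 had a lower effect at 24 h and 10 a higher effect, or 265 and 36 without MS-1. Since risers were chosen by their 8-h values, a lower value at another time is partly built in, and the count is a description. The same holds for the liver-restricted transcripts, which were chosen by a high level in the 24-h vehicle livers that enter this test.

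Some of the largest gains differed between the times. The 1528-base transcript that rose to 742 TPM on average at 8 h had a log2 change of −0.01 at 24 h, and 0.998 without MS-1. The difference from 8 h was −4.54 (adjusted p = 0.000395), and −3.42 without MS-1 (adjusted p = 9.76e-06). The 1655-base transcript that rose to 564 TPM behaved alike, with 0.18 at 24 h, 0.55 without MS-1, and a difference of −2.11 (adjusted p = 0.000880), or −1.63 without MS-1 (adjusted p = 1.85e-05). Others had changes of like or greater size at 24 h. The largest gain, of 1369 bases, had a log2 change of 1.71 at 24 h and 2.21 without MS-1. The 1268-base liver-restricted transcript fell by 5.14 on the log2 scale at 24 h, and by 5.52 without MS-1, a difference from 8 h of −1.82 that was called only without MS-1 (adjusted p = 0.0263 with it and 0.00137 without it, where the difference was −2.08).

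The named transcripts were mixed in this respect. ENSRNOT00000001876 had a log2 change of −5.02 at 24 h (adjusted p = 0.00104), and of −5.40 without MS-1 (adjusted p = 0.000156). ENSRNOT00000080410 changed by 3.51 at 24 h, which was not called (adjusted p = 0.0325), but by 7.74 without MS-1 (adjusted p = 1.11e-05), and its mean of 9.56 ± 3.32 TPM (SD, n = 5) in 24-h high-dose livers was its highest of all 18 groups. ENSRNOT00000003745 fell back to 2.49 ± 0.890 TPM (SD, n = 5) in 24-h high-dose livers. Its effect was lower than at 8 h by 5.50 log2 units (adjusted p = 0.00427), but the difference of −3.35 without MS-1 was not called (adjusted p = 0.0129).

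To see whether the other organs changed in a like manner at 8 h, the transcripts were followed in kidney and heart. The series has 30 rats for its 90 samples, so these organs come from the same rats as the livers, but no label names the rat. The library numbers of the hearts are 60 above those of the livers of the same dose for all 10, and those of the kidneys 30 above for 6 of 10, which may mark the same rats. The tests did not use this and treat the organs as independent. In the kidney, 160 of 1954 liver risers rose (8.19%, against 1.09% of all transcripts) and 23 of 1189 liver fallers fell (1.93%, against 0.409%). The medians, 0.24 and −0.20, were far below those in the liver. The kidney vehicle library MS-100 had a strong bearing on these counts. Without it, 225 of 1967 liver risers rose (11.4%, against 1.99% of all) and 61 of 1191 liver fallers fell (5.12%, against 2.89%). In the heart, edgeR called 3 of 17519 transcripts as rises (0.0171%), all 3 of them among 1857 liver risers, and 0 as falls (0%), where 769 were lower at an unadjusted p below 0.05.

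The effect of the high dose differed between kidney and liver for 2862 of 19891 transcripts (14.4%), and for 4430 of 20262 without MS-100 (21.9%). Nearly all differences among the called transcripts were in the direction of a smaller effect in the kidney, 1260 of 2041 liver risers with a lower effect and 685 of 1277 liver fallers with a higher effect. Again the members were chosen by their change in the liver. Among the transcripts with the largest gains, the 1528-base transcript also rose in the kidney, by 2.67 on the log2 scale, which was less than in the liver (difference −1.85, adjusted p = 0.000931). The 1901-base transcript, with 97.5 TPM in vehicle and 483 TPM in high-dose livers, had a log2 change of −0.01 in the kidney (difference −2.14, adjusted p = 1.65e-07). ENSRNOT00000080410, at 1.53 ± 0.379 TPM in high-dose kidneys (SD, n = 5), and ENSRNOT00000001876 likewise had lesser effects in the kidney than in the liver, with differences of −8.97 (adjusted p = 2.93e-07) and 5.37 (adjusted p = 2.76e-06). These 4 differences were also called without MS-100.

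**Figure D5:**
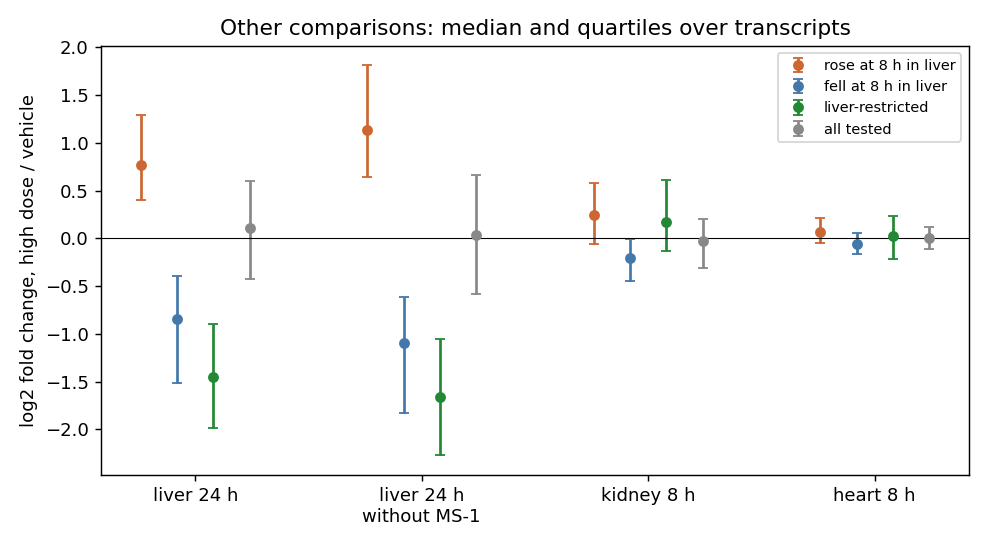
Median log2 fold change (points) and quartiles over transcripts (bars) in 3 other comparisons of the high dose with vehicle, the liver at 24 h also without MS-1, for transcripts that rose or fell in the liver at 8 h, for liver-restricted transcripts, and for all transcripts tested. The 8-h risers have medians of 0.77 and 1.13 in the liver at 24 h and of 0.24 in the kidney, and the liver-restricted transcripts have the lowest medians at 24 h, −1.45 and −1.66. The liver-restricted class was chosen by a high level in the 24-h vehicle livers, so its low medians at 24 h are partly built in.

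The livers of rats given the low dose were compared with the same 5 vehicle livers, so the values of the low dose are not independent of those above and are only set beside them. The low-dose group includes MS-9, whose label is in doubt. The 8-h risers had a median log2 change of 0.97 after the low dose, the 8-h fallers −0.84, and the liver-restricted transcripts −0.61. Without MS-9 these medians were 0.90, −0.79, and −0.61. The risers and fallers were chosen by their change after the high dose, so a smaller change after the low dose is partly built in. The liver-restricted transcripts were not so chosen, and their median was lower after the low dose than after the high dose (−0.50). In TPM, ENSRNOT00000001876 stood at 50.97 ± 12.8 in vehicle, 19.5 ± 10.3 in low-dose, and 1.91 ± 0.969 in high-dose livers (SD, n = 5). ENSRNOT00000003745 went from 0.0229 ± 0.0314 over 0.836 ± 0.769 to 5.54 ± 1.27 TPM, and ENSRNOT00000080410 from 0.00348 ± 0.00779 over 1.75 ± 0.984 to 2.99 ± 1.46 TPM (SD, n = 5). In these 3 the low-dose mean lay between those of vehicle and high dose. They were chosen as extremes of the high-dose comparison, so an intermediate mean is partly built in. Without MS-9 the low-dose means of the 3 transcripts were 19.3 ± 11.8, 0.570 ± 0.561, and 1.39 ± 0.621 TPM (SD, n = 4), also between the other means. For ENSRNOT00000002814 the low and the high dose were close, at 0.0198 ± 0.0149 and 0.0134 ± 0.0103 TPM (SD, n = 5).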

How the data were processed

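The authors pseudo-aligned read pairs to the Ensembl rat transcriptome (Rnor_6.0) with kallisto 0.42.2, per the labels and the study's methods, and deposited an estimated count and a TPM for each target and library. Here, estimated counts of 40071 transcripts were rounded and tested with edgeR 4.0.16 in R 4.3.3 (default filter, TMM scaling, quasi-likelihood test, Benjamini-Hochberg adjustment) in the 10 libraries compared, 5 in each group. A transcript was called at an adjusted p-value of at most 0.01 with a natural-log fold change of at least 0.60 in either direction. Interactions used the adjusted p-value alone. Libraries are named by the numbers in their labels. Group means, exact tests, and plots used Python 3.11.15 with scipy 1.17.1. The tests were checked on simulated counts. There the test of the time interaction found fewer of the changed transcripts than first required, and the requirement was lowered after this was seen.

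The transcripts described, the lists, and the classes were chosen with earlier results of these data known, and the organ classes and the limit of 300 bases after these values were seen. Gene lists and cell-type markers were not analysed here, for want of gene names. Transcripts were named by the largest fold change among those called with a mean of at least 2 CPM and no overlap, 2 in each direction, and the 6 largest changes of mean TPM in each direction were given without identifiers. Reads shared by similar transcripts are divided by kallisto, and 142 tested transcripts (20 called) had the same counts as another. Alternatives were DESeq2 1.42.0, RLE scaling, other filters, limma 3.58.1 on TPM (log2, pseudocount 1 or 0.1), all 15 livers of 8 h in the fit, all targets, the interval share as a covariate, any size of change, and fits without single libraries.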

Additional observations from a re-analysis of the deposited data

Results flagged for a closer look

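Within groups, 24 sets of 5 libraries were searched for a library whose gap to its neighbor was over 0.71 of the range, a limit that chance passes in about 1 of 20 sets. The vehicle library MS-16 stood apart in its share of counts on intervals (23.6%), in its share of TPM on transcripts under 300 bases (31.9%), in the transcripts above 0 (22776, and 21713 at equal depth), and in ENSRNOT00000002814 (13.9 CPM). The high-dose library MS-14 stood apart in the share of counts on intervals (28.9%) and of TPM on transcripts under 300 bases (36.2%). The single vehicle count of ENSRNOT00000080410 was in MS-29 (0.0400 CPM).

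The effect of the high dose differed between 24 and 8 h for 1430 transcripts and between kidney and liver for 2862, each by a test of the difference itself in edgeR. For ENSRNOT00000003745 the effect was lower by −5.50 at 24 h (adjusted p = 0.00427) and by −5.95 in the kidney (adjusted p = 0.00835). In the kidney, the effect differed from that in the liver by −8.97 for ENSRNOT00000080410 and by 5.37 for ENSRNOT00000001876.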

How the results depend on the processing

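The number of called transcripts, 3323, lay between 2433 (limma on log2(TPM + 1)) and 3740 (DESeq2) in 20 alternatives, and was 5395 with no limit on the fold change. Leaving out 1 library gave 2985 to 3603. Falls were the less stable part. They numbered 1277, but 488 with limma on log2(TPM + 1), 686 on log2(TPM + 0.1), and 2552 with no limit on the fold change. Liver-restricted transcripts fell in 73 cases with limma on log2(TPM + 0.1) and in 171 with no limit, and their median stayed below that of all transcripts in each alternative. With a 5-fold in place of a 10-fold ratio, which widens the classes, 14 liver-restricted transcripts rose, and 643 transcripts of kidney or heart rose and 157 fell. Of the latter, 20 and 42 fell with limma on log2(TPM + 1) and log2(TPM + 0.1). The cause of the change with limma was not tested.

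The difference between 24 and 8 h was called for 2402 transcripts by DESeq2, against 1430, and leaving out 1 library gave 1004 to 1878. The difference between kidney and liver was called for 2383 to 4430 when 1 library was left out, the highest value without the kidney vehicle library MS-100, and for 4157 by DESeq2. Without MS-1, 1096 of the 8-h risers rose at 24 h, against 331, and 729 fallers fell, against 457. Without MS-100, 61 of the liver fallers fell in the kidney, against 23. In the 8-h liver comparison, ENSRNOT00000002814 alone among the named transcripts lost its call, with limma on log2(TPM + 1) (−0.36). The call of ENSRNOT00000003745 for the difference between 24 and 8 h was lost without MS-1 (adjusted p = 0.0129). Sums per gene were not run, since identifiers were not paired with genes. With 5 rats a group, the smallest p of an exact test was 0.00794, and few counts limit what can be said of transcripts near 0 in 1 group. No paired analysis was made. The library numbers may mark organs of the same rats in part, as given above, but no label names the rat.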
